A study of Homo sapiens with 4 samples.

Results

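The genes that make, recharge and spend the reducing power of glutathione and thioredoxin were followed in A549 cells, a human lung adenocarcinoma line, across ARRB1 siRNA and nicotine. The 9 genes were GCLC, GCLM, TXN, TXNRD1, SRXN1, GPX2, PGD, TALDO1 and HMOX1, and they were taken by name, out of 19775 genes with a symbol on the array. They are read by 18 probe sets, and the probe set with the highest mean signal represented each gene. All 9 of these reached a mean signal of 66.3, the median over the whole array and the limit used here for an expressed gene, which 12521 genes passed.

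RNA was measured on 4 arrays, 1 each for ARRB1 siRNA with nicotine, ARRB1 siRNA with serum starvation, control siRNA with nicotine, and control siRNA with serum starvation. ARRB1 encodes β-arrestin-1, a scaffold that desensitizes G-protein-coupled receptors and that also carries signals from nicotinic acetylcholine receptors in lung cancer cells. All the cells were transfected with an siRNA and made quiescent by 36 h without serum, and the nicotine arrays come from cells that then received 1 µM nicotine for 24 h. Whether the starved cells were also kept for those 24 h was not established here, so nicotine and time in culture may differ together. The study is a single cell line with transient transfection and without replicate arrays, so that no comparison could be checked in a replicate and no p-value is given.

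Glutathione is built in a first, rate-limiting step by the GCLC and GCLM subunits, and glutathione peroxidases spend it to reduce peroxides. Thioredoxin (TXN) reduces protein disulfides and is itself recharged by TXNRD1, and both systems draw on NADPH, which the pentose phosphate pathway supplies. All of these genes are known targets of the transcription factor NRF2 (NFE2L2), which KEAP1 holds at low levels in unstressed cells. A549 cells carry an inactivating KEAP1 mutation, so that NRF2 is active and its targets are abundant without any treatment.

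NRF2 binds with small MAF proteins to the antioxidant response element, searched here by its core TGACNNNGC on either strand (GCNNNGTCA when read from the other strand). RefSeq promoter windows of GRCh38.p14 covered 250 bases before and 50 bases after each start site, and matched 8 of the 9 genes in 9 windows, with a pair of start sites for TXNRD1. HMOX1 was not matched. The core stood wholly upstream of the start site in 5 of these 9 windows, belonging to 4 genes, and in 10.9% of all 35116 windows. The stretches with a match are printed because they hold the core in 4 of the 9 genes, on the strand of the gene and with the core in capitals:
GCLM: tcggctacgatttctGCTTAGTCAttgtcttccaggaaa
GPX2: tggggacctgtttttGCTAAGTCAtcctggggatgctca
PGD: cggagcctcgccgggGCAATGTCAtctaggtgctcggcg
TXNRD1, upstream start site: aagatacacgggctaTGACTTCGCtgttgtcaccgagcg
TXNRD1, downstream start site: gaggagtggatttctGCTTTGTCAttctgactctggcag

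The GCLM stretch lies at chr1:93909441-93909479 (minus strand), with the core 34 bases before the start site. The GPX2 stretch lies at chr14:64942844-64942882 (minus strand), with the core 122 bases before the start site. The PGD stretch lies at chr1:10398848-10398886 (plus strand), with the core 201 bases before the start site. In TXNRD1 the stretches are at chr12:104215665-104215703 and chr12:104286915-104286953 (plus strand), with the core 99 and 102 bases upstream. The core is read from the other strand in 4 of the 5 stretches, the exception being the upstream start site of TXNRD1. The windows of GCLC, TXN, SRXN1 and TALDO1 hold no match to these letters. A match describes the sequence only, since binding was not measured.

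The siRNA target itself served as a check of the labels. ARRB1 is read by 7 probe sets, of which 6 were lower in the cells with its siRNA in each treatment, and the median probe set kept 65.7% of its control siRNA signal with nicotine and 54.2% with starvation. Median signals of the 4 arrays were 68.6 to 73.3, and the 99th percentile was 13716 with ARRB1 siRNA against 12319 with control siRNA in the nicotine pair, and 12714 against 11554 in the starved pair. The 3'/5' signal ratio of ACTB, a sign of RNA integrity, was 1.37 with ARRB1 siRNA against 1.29 with control siRNA in the nicotine pair and 1.38 against 1.31 in the starved pair. That of GAPDH ran the other way, at 0.893 against 0.940 in the nicotine pair and 0.885 against 0.915 in the starved pair. The epithelial markers KRT8, KRT18, KRT19, CDH1 and EPCAM were all expressed, whereas alveolar type 2 markers were dim (at most 232) and NKX2-1 was below the expression limit. CDH1 was lower with ARRB1 siRNA, at -0.77 on the log2 scale with nicotine and -0.71 with starvation, and SFTPC was at -1.83 with nicotine and 0.19 with starvation. The part of these in the results below was not tested. Among markers of other cells 3 of 11 passed that limit, namely COL1A1, CD79A and PECAM1.

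The 9 genes gave bright signals everywhere: at most 2.52% of probe sets were brighter than any of their representative probe sets. Signal depends on the probes as well as on the RNA, so no gene's level was set against another's. In a bulk sample, moreover, fewer cells and less RNA per cell cannot be told apart. The plot of member signals by array shows each gene on its own scale.

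**Figure D1:**
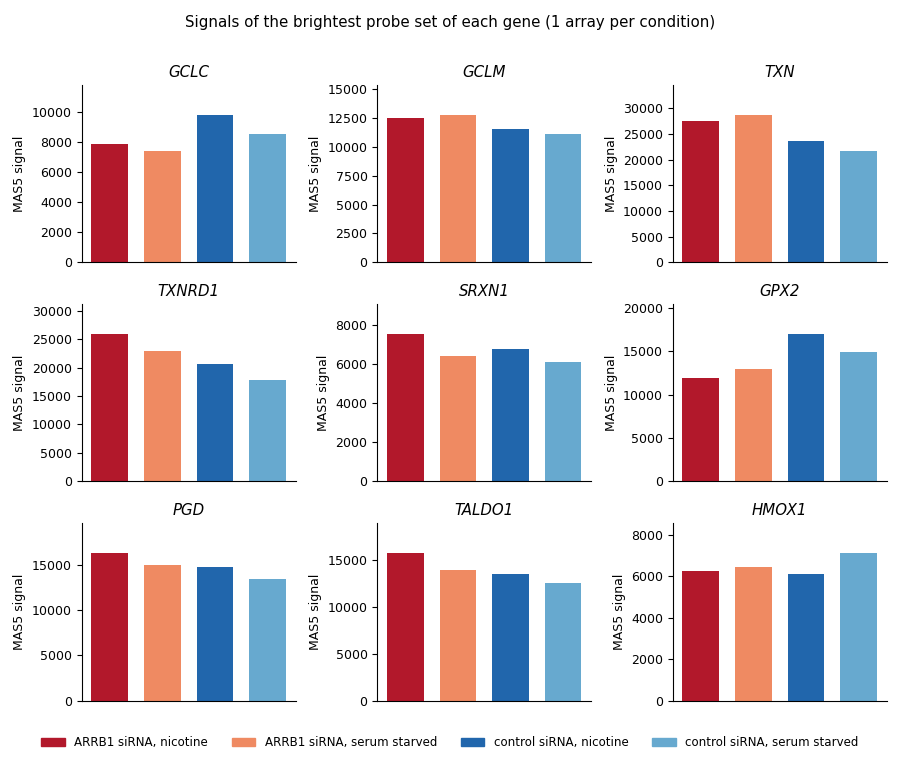
MAS5 signal (linear, from 0) of the brightest probe set of each of the 9 genes on the 4 arrays, 1 bar per array and no error bars because there are no replicates. GCLC and GPX2 stand lower on both ARRB1 siRNA arrays than on either control siRNA array. GCLM, TXN, TXNRD1, PGD and TALDO1 stand higher on both. The share of expressed genes separated in this way was not counted, so the separation is a description. A gene so separated is higher in both treatments, or lower in both, as 34.6% and 30.0% of expressed genes were. No gene spans more than 0.54 on the log2 scale.

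GCLC, the catalytic subunit of glutamate-cysteine ligase (chr6:53497341-53545101), had signals of 7897 with ARRB1 siRNA and nicotine and 7418 with ARRB1 siRNA and starvation, against 9812 with control siRNA and nicotine and 8551 with control siRNA and starvation. Both ARRB1 siRNA arrays were below both control siRNA arrays, an order whose share among expressed genes was not counted. The log2 difference was -0.31 with nicotine (0.805 of the control siRNA signal) and -0.21 with starvation (0.867), lower under all 4 scalings tried. A further bright GCLC probe set, 202922_at, had 3863 with ARRB1 siRNA against 4562 with control siRNA in the nicotine pair and 4168 against 4762 in the starved pair, again without overlap, at -0.24 and -0.19.

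GCLM, the modifier subunit that raises the affinity of the enzyme for glutamate (chr1:93885199-93909430), gave probe sets that disagreed in the nicotine pair. Its brightest probe set, 203925_at, had 12450 with ARRB1 siRNA and nicotine and 12768 with ARRB1 siRNA and starvation, against 11526 with control siRNA and nicotine and 11060 with control siRNA and starvation. The ARRB1 siRNA differences were 0.11 with nicotine, which turned to -0.01 after quantile normalization, and 0.21 with starvation, which stayed above 0 under the 4 scalings. The other GCLM probe sets, 236140_at and 234986_at, were at -0.85 and -0.28 with nicotine, below 0 as GCLC was. Taking the median signal over the GCLM probe sets on each array gave -0.81. That median signal was 3472 (234986_at) with ARRB1 siRNA and 6078 (236140_at) with control siRNA. The -0.81 thus sets different probe sets against each other and is not the typical difference of a GCLM probe set. The difference between the subunits was not tested.

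GPX2, the gastrointestinal glutathione peroxidase, which is also made in airway epithelium (chr14:64939158-64942745), had the largest negative difference of the 9 genes, in the nicotine pair. Its signal was 11918 with ARRB1 siRNA and nicotine and 12978 with ARRB1 siRNA and starvation, against 17033 with control siRNA and nicotine and 14927 with control siRNA and starvation. The control siRNA arrays were both above the ARRB1 siRNA arrays, an order whose share among expressed genes was not counted. The gap was wider with nicotine. The log2 difference was -0.52 with nicotine (0.700 of control siRNA) and -0.20 with starvation (0.869), and it ranged from -0.72 to -0.43 and from -0.42 to -0.20 over the 4 scalings.

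TXN, thioredoxin itself (chr9:110243810-110256507), had 27509 with ARRB1 siRNA and nicotine and 28795 with ARRB1 siRNA and starvation, against 23684 with control siRNA and nicotine and 21717 with control siRNA and starvation. The ARRB1 siRNA arrays were both higher, again an order whose share was not counted. With starvation the log2 difference was 0.41, the largest positive difference among the 9 genes in any comparison. After quantile normalization it came to 0.15, and the 0.22 with nicotine turned to -0.09. A dimmer TXN probe set, 216609_at, held between 732 and 774 on all 4 arrays and differed by 0.03 with nicotine and 0.08 with starvation.

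TXNRD1, the selenoprotein reductase that recharges thioredoxin with NADPH (chr12:104215779-104350307), had 25941 with ARRB1 siRNA and nicotine and 22838 with ARRB1 siRNA and starvation, against 20607 with control siRNA and nicotine and 17873 with control siRNA and starvation. It had the widest range of the 9 genes over the 4 arrays, 0.54 on the log2 scale. Its differences with ARRB1 siRNA were 0.33 with nicotine and 0.35 with starvation, both above 0 under the 4 scalings. After quantile normalization, however, they came to 0.02 with nicotine and 0.13 with starvation. SRXN1, sulfiredoxin, which repairs over-oxidized peroxiredoxins (chr20:646615-653200), had 7575 with ARRB1 siRNA and nicotine and 6424 with ARRB1 siRNA and starvation, against 6804 with control siRNA and nicotine and 6124 with control siRNA and starvation. Here the groups overlapped, because the control siRNA nicotine array was above the ARRB1 siRNA starved array. The SRXN1 difference was 0.15 with nicotine, above 0 under the 4 scalings, and 0.07 with starvation, which turned to -0.0077 when each array was centred on its median.

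PGD, an NADPH-producing dehydrogenase of the pentose phosphate pathway (chr1:10399064-10420511), had 16330 with ARRB1 siRNA and nicotine and 14951 with ARRB1 siRNA and starvation, against 14741 with control siRNA and nicotine and 13421 with control siRNA and starvation. Both differences were near 0.15 (0.15 with nicotine, 0.16 with starvation), and both turned to -0.03 after quantile normalization. TALDO1, transaldolase of the non-oxidative branch (chr11:747464-765012), had 15805 with ARRB1 siRNA and nicotine and 13942 with ARRB1 siRNA and starvation, against 13522 with control siRNA and nicotine and 12526 with control siRNA and starvation. Its difference of 0.23 with nicotine kept its sign under the 4 scalings, whereas the 0.15 with starvation turned to -0.02 after quantile normalization.

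HMOX1, heme oxygenase 1, which degrades heme to biliverdin, iron and carbon monoxide (chr22:35381096-35394207), had 6258 with ARRB1 siRNA and nicotine and 6480 with ARRB1 siRNA and starvation, against 6114 with control siRNA and nicotine and 7146 with control siRNA and starvation. The highest and lowest arrays were both control siRNA arrays. HMOX1 differed by 0.03 with nicotine, which turned to -0.03 after quantile normalization, and by -0.14 with starvation, which stayed below 0 under the 4 scalings. Gene positions are those of RefSeq on GRCh38.p14.

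The submitters' labels name a 2-fold limit for choosing genes, and 0 of the 9 genes passed it in any of the 4 comparisons. For ARRB1 siRNA against control siRNA with nicotine, 0.879% of the 12521 expressed genes were at least 2-fold higher and 1.4% at least 2-fold lower. With starvation these shares were 1.01% and 0.783%. For nicotine against starvation they were 0.495% and 0.958% in ARRB1 siRNA cells, and 0.719% and 0.335% in control siRNA cells. With so few genes past the limit, a count of 0 among 9 is near the background and is not a result about these genes.

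A 1.5-fold limit also passed 0 of the 9 genes in all 4 comparisons. The background at 1.5-fold was 3.72% higher and 6.43% lower for ARRB1 siRNA with nicotine, and 4.89% and 3.87% for ARRB1 siRNA with starvation. For nicotine it was 2.16% and 4.7% in ARRB1 siRNA cells, and 2.93% and 1.77% in control siRNA cells. GPX2 came closest, at 0.700 of the control siRNA signal with nicotine.

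By direction alone, 7 of the 9 genes were higher with ARRB1 siRNA in nicotine treated cells and 6 in starved cells. The medians were 0.15 and 0.15 on the log2 scale, against 0.02 and 0.02 over all expressed genes, of which 52.2% and 52.4% were higher. These counts turned with the scaling: 4 genes changed sign under another scaling with nicotine (GCLM, TXN, PGD and HMOX1) and 3 with starvation (SRXN1, PGD and TALDO1). In both treatments together, by the values as deposited, 6 genes were higher (GCLM, TXN, TXNRD1, SRXN1, PGD and TALDO1), 2 were lower (GCLC and GPX2) and HMOX1 went opposite ways, while 34.6%, 30.0% and 35.4% of expressed genes did so. These 2 comparisons share no array.

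Bright probe sets as a whole were higher with ARRB1 siRNA, and this bears on the genes described here because all of them are bright. Among the 500 probe sets of closest mean signal, the median difference with nicotine was between 0.08 and 0.29 for the 9 genes, and with starvation between 0.06 and 0.22. TXN and TXNRD1 shared 1 such window, that of the 500 brightest probe sets, most of them dimmer than these genes. Its median was 0.29 with an SD of 0.14 with nicotine, and 0.22 with an SD of 0.12 with starvation. Since the median climbs with signal, taking it off may remove too little for these genes. This SD is the spread between probe sets and not a replicate error.

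**Figure D2:**
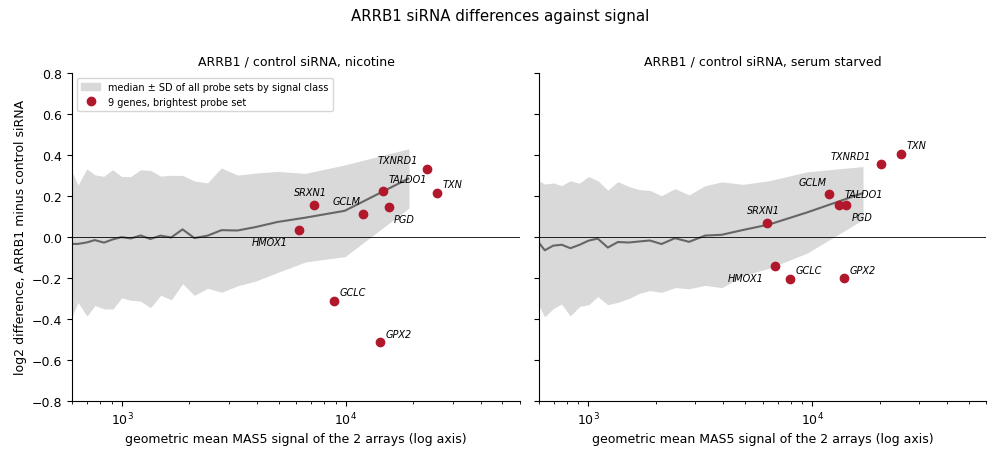
Log2 difference between ARRB1 siRNA and control siRNA (vertical) against the geometric mean signal of the arrays compared (horizontal, log axis), with nicotine on the left and starvation on the right. The grey line and band are the median ± SD of all probe sets in classes of equal size, and they climb at high signal; the points are the 9 genes, of which GPX2 and GCLC lie below the band in both panels.

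Measured from these medians, most of the higher values came close to 0. TXN stood -0.56 SD from the median of equally bright probe sets with nicotine and 1.59 SD with starvation, and TXNRD1 stood 0.28 SD and 1.15 SD away. PGD and TALDO1 were within 0.51 SD of the median of equally bright probe sets in both treatments, as were GCLM and SRXN1. The median of the 9 genes turned to -0.064 with nicotine and -0.018 with starvation after the local median was taken off.

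GPX2 and GCLC, by contrast, stood over 1 SD below the median in both treatments. With starvation, TXN stood further from its median, on the high side, than GCLC did on the low side. GPX2 was -4.25 SD from the median of equally bright probe sets with nicotine and -2.65 SD with starvation, values reached or passed on the low side by 0.288% and 0.887% of expressed genes. GCLC was -1.83 SD and -1.50 SD away, and 3.66% and 5.67% of expressed genes were as low. Of the 9 genes, these 2 were over 1 SD below the local median in both treatments, against 5.34% of expressed genes, and 0 were over 1 SD above it in both, against 4.11%. The limit of 1 SD was set after the values were seen, so the counts are a description. HMOX1 was -0.31 SD away with nicotine and -1.02 SD with starvation.

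**Figure D3:**
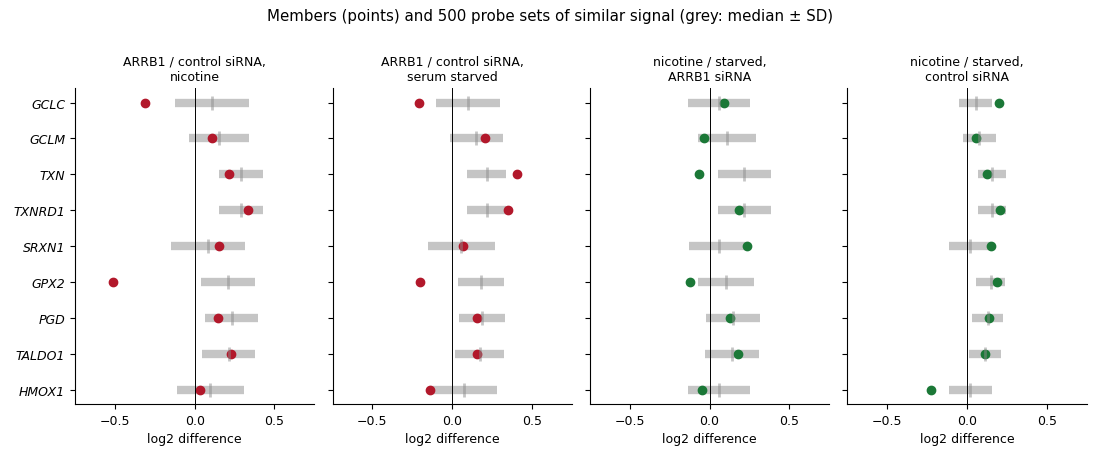
Log2 differences of the 9 genes (points) in the 4 comparisons, with the median ± SD of the 500 probe sets of closest signal (grey bars). In the panels for ARRB1 siRNA, GPX2 lies at -0.52 with nicotine and -0.20 with starvation and GCLC at -0.31 and -0.21, left of their bars. With starvation TXN lies at 0.41, right of its bar, TXNRD1 lies just right of its bar and HMOX1 just left. All other values in these panels lie within their bars.

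Nicotine went with smaller differences in these genes than ARRB1 siRNA did, with median sizes of 0.12 in ARRB1 siRNA cells and 0.15 in control siRNA cells, while the median sizes for ARRB1 siRNA were 0.22 with nicotine and 0.20 with starvation. Over all expressed genes the median sizes were 0.16, 0.13, 0.19 and 0.18 in that order. In ARRB1 siRNA cells 5 of the 9 were higher with nicotine and 4 lower, with a median of 0.09, which turned to -0.07 after quantile normalization, against -0.01 over expressed genes, of which 48.1% were higher. In control siRNA cells 8 were higher and 1 lower, with a median of 0.14 against -0.02, and 44.4% of expressed genes were higher. The sign depended on the scaling for 5 genes in ARRB1 siRNA cells (GCLM, TXN, TXNRD1, PGD and HMOX1) and for 3 in control siRNA cells (GCLM, TXN and TALDO1).

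SRXN1 was higher with nicotine under both siRNAs and all 4 scalings, by 0.24 in ARRB1 siRNA cells and 0.15 in control siRNA cells, or 0.95 and 1.00 SD above equally bright probe sets. GCLC was higher by 0.09 and 0.20 on its brightest probe set, but its other bright probe set, 202922_at, was at -0.11 and -0.06. HMOX1 was lower with nicotine in control siRNA cells, at -0.22 (0.856 of the starved signal), under all 4 scalings, and stood -1.81 SD from the local median, a value that 2.21% of expressed genes reached on the low side. In ARRB1 siRNA cells HMOX1 differed by -0.05, which became 0.02 when each array was centred on its median.

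Across both siRNAs, by the values as deposited, 5 genes were higher with nicotine in each (GCLC, TXNRD1, SRXN1, PGD and TALDO1), HMOX1 was lower in each, and GCLM, TXN and GPX2 went opposite ways, but among these the sign of every gene other than GCLC, SRXN1 and GPX2 turned under another scaling in at least 1 of the siRNAs. Among expressed genes, 23.7% were higher in both, 31.1% lower in both and 45.2% opposite. GPX2 was lower with nicotine in ARRB1 siRNA cells, at -0.12, and higher in control siRNA cells, at 0.19, and both signs held under the 4 scalings. The difference between the siRNAs in the GPX2 value for nicotine against starvation was not tested, since each value rests on 1 array per condition.

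Further probe sets were available for 6 of the 9 genes. Of all 18 probe sets, 1 was at least 2-fold higher and 3 at least 2-fold lower with ARRB1 siRNA in nicotine treated cells, 2 were at least 2-fold lower with nicotine in ARRB1 siRNA cells, and none passed in the other comparisons. Over all 54613 probe sets, dim ones included, 10.4% were at least 2-fold higher and 11.7% lower for ARRB1 siRNA with nicotine, and 11.9% and 9.12% with starvation. For nicotine these shares were 10.5% and 11% in ARRB1 siRNA cells and 11.9% and 8.55% in control siRNA cells. Most of the 18 were above the expression limit, so this background is not matched to them in signal. The counts are therefore a description and not a result about these genes. The probe sets past 2-fold had at most 395 on any array, and 2 of the 18 probe sets were below the expression limit.

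A further GPX2 probe set, 239595_at, had 159 with ARRB1 siRNA and nicotine and 317 with ARRB1 siRNA and starvation, against 395 with control siRNA and nicotine and 381 with control siRNA and starvation. It was lower with ARRB1 siRNA in both treatments, as the brightest one was, at -1.32 with nicotine and -0.26 with starvation, where probe sets of that signal had SDs of 0.44 and 0.37. The third GCLC probe set, 1555330_at, had 50.9 with ARRB1 siRNA against 115 with control siRNA in the nicotine pair and 110.0 against 126 in the starved pair, or -1.18 and -0.20. So all GPX2 and all GCLC probe sets were lower with ARRB1 siRNA in both treatments in the values as deposited.

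For GCLM the probe sets disagreed on the ARRB1 siRNA nicotine array. The probe set 236140_at had 3380 with ARRB1 siRNA and nicotine and 5683 with ARRB1 siRNA and starvation, against 6078 with control siRNA and nicotine and 4941 with control siRNA and starvation. The probe set 234986_at had 3472 with ARRB1 siRNA and nicotine and 5248 with ARRB1 siRNA and starvation, against 4222 with control siRNA and nicotine and 4381 with control siRNA and starvation. Both were lowest on that array, and with nicotine they were lower with ARRB1 siRNA, at -0.85 and -0.28, where the brightest GCLM probe set was at 0.11. With starvation the 3 agreed, at 0.20, 0.26 and 0.21.

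The same array was the lowest for several other probe sets. The PGD probe set 1560942_at, below the expression limit, had 12.8 with ARRB1 siRNA and nicotine and 60.3 with ARRB1 siRNA and starvation, against 58.5 with control siRNA and nicotine and 69.4 with control siRNA and starvation. The other PGD probe set, 1560943_s_at, had 77.5 with ARRB1 siRNA against 77.6 with control siRNA in the nicotine pair and 96.3 against 108 in the starved pair. The dim TXNRD1 probe set 1561080_at ran the other way, with 34.1 with ARRB1 siRNA against 13.0 with control siRNA in the nicotine pair and 17.7 against 13.5 in the starved pair, all below the expression limit.

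**Figure D4:**
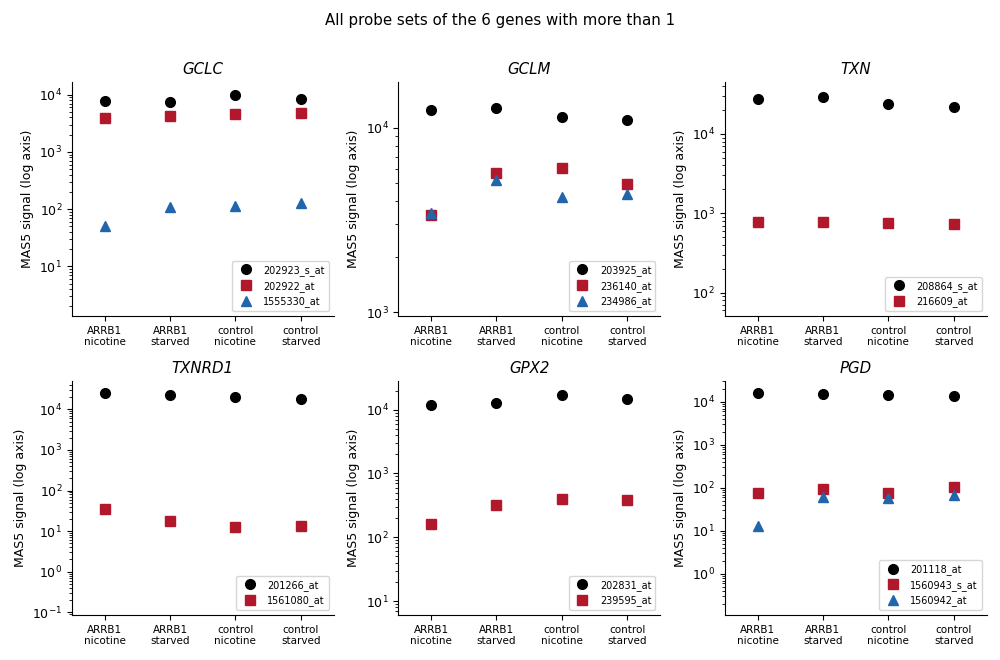
MAS5 signal (log axis) on the 4 arrays for every probe set of the 6 genes with more than 1, with 1 point per array and a marker per probe set. The further probe sets of GCLM (3380 and 3472), GPX2 (159) and GCLC (50.9) are lowest on the ARRB1 siRNA nicotine array, while the brightest GCLM probe set (12450) is not.

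Of the 7 further probe sets above the expression limit, 3 gave a log2 difference lower than that of the brightest probe set of their gene by at least 0.5 for ARRB1 siRNA with nicotine, and 4 did so for nicotine in ARRB1 siRNA cells. Over all 10505 such probe sets of 6065 genes, 13.0% and 10.9% did so. In the comparisons without that array, for ARRB1 siRNA with starvation and for nicotine in control siRNA cells, 0 and 1 of the 7 did so, against 10.0% and 5.8%. Probe sets of 1 gene share their RNA and are no replicates, and where they lie within the transcripts was not looked up.

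The wider pathway was read through 6 lists that together hold 122 genes, 111 of them expressed. In none of the 4 comparisons did any of the 111 differ by 2-fold. At 1.5-fold, 1 was higher (TXNIP) and 4 lower (GGT1, SESN3, H6PD and SHMT1) for ARRB1 siRNA with nicotine, and 1 was lower (BTRC) for ARRB1 siRNA with starvation. For nicotine, 1 was lower (SESN3) in ARRB1 siRNA cells and 0 passed in control siRNA cells. Against the shares of all expressed genes past 1.5-fold given above, 3.72% higher and 6.43% lower for ARRB1 siRNA with nicotine, these counts are not above the background. The medians of the 111 genes were 0.09 and 0.00 for ARRB1 siRNA with nicotine and with starvation, and 0.07 and 0.00 for nicotine in ARRB1 siRNA and in control siRNA cells. As a background for the list counts below, 52.2% and 52.4% of all expressed genes were higher with ARRB1 siRNA, with nicotine and with starvation. Over the 4 scalings these were 6492 to 7997 and 5076 to 6567 of the 12521 genes.

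Among 30 expressed genes of glutathione synthesis and use, 17 were higher and 13 lower with ARRB1 siRNA in each treatment, and the number higher ran from 14 to 19 with nicotine and from 10 to 17 with starvation over the 4 scalings. GSR, which recycles oxidized glutathione with NADPH, had 5356 with ARRB1 siRNA against 5744 with control siRNA in the nicotine pair and 5345 against 5762 in the starved pair. SLC7A11, the cystine importer that feeds the GCLC step, had 10109 with ARRB1 siRNA against 9564 with control siRNA in the nicotine pair and 10001 against 9445 in the starved pair. GLRX, glutaredoxin, had 7491 with ARRB1 siRNA and nicotine, below 11137 with ARRB1 siRNA and starvation, 9719 with control siRNA and nicotine and 9776 with control siRNA and starvation, but its other probe set had 4894, 5022, 4153 and 5022 in that order. So the GLRX probe sets, too, disagreed on the ARRB1 siRNA nicotine array.

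In the thioredoxin and peroxiredoxin list, 14 of 19 expressed genes were higher with ARRB1 siRNA and nicotine and 11 of 19 with starvation, with medians of 0.10 and 0.04 (11 to 17 and 6 to 11 higher over the 4 scalings). Among all expressed genes 52.2% and 52.4% were higher. PRDX4, a peroxiredoxin of the endoplasmic reticulum, had 14262 with ARRB1 siRNA against 11998 with control siRNA in the nicotine pair and 13149 against 9308 in the starved pair. TXNIP, the inhibitor of thioredoxin, had 249 with ARRB1 siRNA against 160 with control siRNA in the nicotine pair and 265 against 237 in the starved pair, a difference of 0.64 with nicotine, but a further TXNIP probe set had -0.45. SESN3, a sestrin, had 131 with ARRB1 siRNA against 235 with control siRNA in the nicotine pair and 212 against 268 in the starved pair, or -0.84 with nicotine and -0.34 with starvation.

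Of 18 expressed genes of the pentose phosphate pathway and NADPH supply, 8 were higher with ARRB1 siRNA and nicotine and 6 with starvation, with medians of -0.02 and -0.06 (7 to 10 and 5 to 7 higher over the 4 scalings). TKT, transketolase, had 28457 with ARRB1 siRNA against 25950 with control siRNA in the nicotine pair and 24462 against 22394 in the starved pair, or 0.13 in each treatment, which turned to -0.20 and -0.14 after quantile normalization. H6PD, which makes NADPH within the endoplasmic reticulum, had 271 with ARRB1 siRNA against 418 with control siRNA in the nicotine pair and 301 against 363 in the starved pair, lower under the 4 scalings. SHMT1, a cytosolic enzyme of folate metabolism, had 114 with ARRB1 siRNA against 207 with control siRNA in the nicotine pair and 170 against 171 in the starved pair, so that its -0.86 was seen with nicotine and not with starvation (-0.01).

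The heme and iron list had medians of -0.03 with nicotine and -0.01 with starvation over 15 expressed genes, of which 5 were higher with nicotine and 7 with starvation (5 to 9 and 5 to 8 over the 4 scalings). FTL, the ferritin light chain, had 36258 with ARRB1 siRNA against 26198 with control siRNA in the nicotine pair and 26035 against 21570 in the starved pair, at 0.47 and 0.27, above 0 under the 4 scalings. After quantile normalization, however, these FTL differences came to 0.11 and 0.02. HMOX2, the constitutive heme oxygenase, had 768 with ARRB1 siRNA against 944 with control siRNA in the nicotine pair and 733 against 737 in the starved pair. These are differences of -0.30 and -0.01, whereas its other probe set was at -0.10 and -0.27. BLVRA, which turns biliverdin into bilirubin, had 4548 with ARRB1 siRNA against 4560 with control siRNA in the nicotine pair and 3750 against 4985 in the starved pair. Further BLVRA probe sets above the expression limit were at -0.26, -0.23 and 0.20 with nicotine. With starvation they were at -0.30, -0.49 and -0.64, so the probe sets disagreed with nicotine only.

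Of the 12 expressed regulators of NRF2, 10 were higher with ARRB1 siRNA and nicotine and 5 with starvation, with medians of 0.16 and -0.03 (9 to 11 and 4 to 5 higher over the 4 scalings). Over all expressed genes 52.2% and 52.4% were higher, and the difference between the treatments was not tested. NRF2 itself, NFE2L2, had 8504 with ARRB1 siRNA against 7990 with control siRNA in the nicotine pair and 7548 against 7601 in the starved pair, within 0.09 on the log2 scale. KEAP1, its repressor, had 2228 with ARRB1 siRNA against 1898 with control siRNA in the nicotine pair and 1848 against 2014 in the starved pair, and BACH1, the repressor that competes for the same element, had 1244 with ARRB1 siRNA against 1136 with control siRNA in the nicotine pair and 1055 against 1098 in the starved pair. The autophagy adaptor SQSTM1 binds KEAP1 and is itself a target of NRF2. It had 19305 with ARRB1 siRNA against 16088 with control siRNA in the nicotine pair and 18241 against 13703 in the starved pair. These differences of 0.26 and 0.41 came to 0.01 and 0.23 after quantile normalization. Further SQSTM1 probe sets ran from 0.15 to 0.66 with nicotine, but disagreed with starvation, from -0.57 to 0.70. BTRC, a ubiquitin ligase adaptor that also targets NRF2, had 392 with ARRB1 siRNA against 365 with control siRNA in the nicotine pair and 316 against 475 in the starved pair, but a further BTRC probe set was at 0.33 with starvation where this one was at -0.59.

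Other NRF2-responsive genes had medians of 0.13 with nicotine and 0.07 with starvation, with 13 and 11 of 18 expressed genes higher with ARRB1 siRNA. The shares of all expressed genes that were higher were 52.2% and 52.4%. NQO1, a quinone reductase often used as a readout of NRF2, had 30030 with ARRB1 siRNA against 25027 with control siRNA in the nicotine pair and 22647 against 21439 in the starved pair, at 0.26 and 0.08, which turned to -0.06 and -0.17 after quantile normalization. The drug exporter ABCC3 had 12076 with ARRB1 siRNA against 9209 with control siRNA in the nicotine pair and 9058 against 8633 in the starved pair, and UGDH, which makes the sugar donor of glucuronidation, had 12716 with ARRB1 siRNA against 12595 with control siRNA in the nicotine pair and 14604 against 10590 in the starved pair. The epoxide hydrolase EPHX1 had 2761 with ARRB1 siRNA against 3246 with control siRNA in the nicotine pair and 3936 against 3694 in the starved pair. Over the 4 scalings, 10 to 13 of the 18 genes were higher with nicotine and 6 to 11 with starvation.

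**Figure D5:**
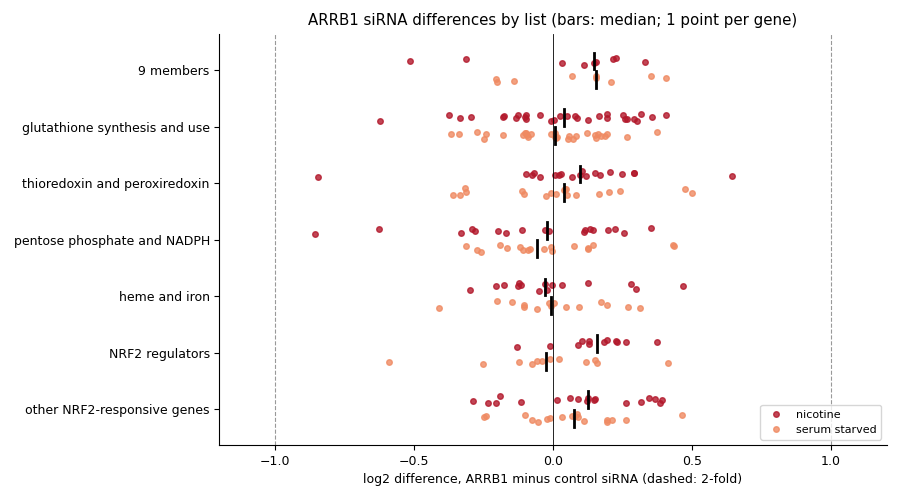
Log2 difference between ARRB1 siRNA and control siRNA for the 9 genes and for the expressed genes of the 6 lists, with nicotine in dark red above and starvation in orange below in each row, 1 point per gene. Black bars are medians and dashed lines mark 2-fold, which no point crosses; the lowest points are SHMT1 (-0.86) and SESN3 (-0.84) with nicotine.

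TXNRD1, which had the widest range, was set against the other 12520 expressed genes by the distance between centred log2 signals over the 4 arrays. The nearest were ANXA1 (distance 0.01), GPI, LDB1, COG4 and RPL7 (each 0.02). ANXA1, annexin A1, had 34144 with ARRB1 siRNA against 27053 with control siRNA in the nicotine pair and 30103 against 23373 in the starved pair, and GPI, the second enzyme of glycolysis, had 12014 with ARRB1 siRNA against 9681 with control siRNA in the nicotine pair and 10706 against 8363 in the starved pair. Of the other 8 genes, TALDO1 was nearest at rank 473, TXN at 632 and PGD at 761, and GCLC and GPX2 were far off at 8839 and 10403. With 4 points and 12520 genes, close profiles are easily found, so that these names are a description.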

How the data were processed

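RNA of A549 cells was hybridized to 4 Affymetrix U133 Plus 2.0 arrays, 1 per condition, and each array was assigned to its condition by its labels. The authors deposited signal intensities on a linear scale. The submitters' processing notes credit them to MAS5 (GCOS 1.4), although the paper names Expression Console, and its log2 transformation and gene centring are not in these values. Control probe sets (62 of 54675) were left out. By the annotation of probe sets, 41091 of the other 54613 had 1 symbol, 1801 had several and 11721 had none. Python 3.11.15 (numpy 2.4.6, pandas 2.3.3, and matplotlib 3.10.9 for figures) gave log2 differences between arrays, and the procedure was tested on simulated data. With 1 array per condition no test was made, and precision is limited accordingly. The spread was described by the SD over the 500 probe sets of closest mean signal. Named genes were the 9 members, ARRB1, chosen regulators and enzymes, up to 4 genes per list with the largest differences, and the 5 nearest profiles of the member with the widest range. Cell type markers were named outside this rule. The members and lists were chosen with earlier results of these data known. The alternatives were centring of arrays on their medians, quantile normalization, a floor on signals at the 25th percentile, a median taken over all probe sets of each gene, exclusion of _x_at and _s_at probe sets, limits of 1.5-fold and 3-fold, and no filter on dim genes. Taking off the median of equally bright probe sets was added after seeing the data. The 4 scalings in the text are the values as deposited, centring, quantile normalization and this subtraction.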

Additional observations from a re-analysis of the deposited data

Results flagged for a closer look

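For 3 genes nicotine went with opposite signs under the 2 siRNAs. The log2 difference of GPX2 was -0.12 in ARRB1 siRNA cells and 0.19 in control siRNA cells, that of TXN was -0.066 and 0.13, and that of GCLM was -0.036 and 0.059. The difference between the siRNAs was not tested, because each condition has 1 array. Only for GPX2 did both signs hold under the 4 scalings.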

How the results depend on the processing

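No paired analysis was possible because each condition has 1 array and the labels give no replicate numbers, and for the same reason no array could be left out. The counts of members at 2-fold stayed at 0 under every alternative run, limits of 1.5-fold and 3-fold included. The median of the 9 genes was moved by quantile normalization to -0.028 for ARRB1 siRNA with nicotine (0.15 as deposited), to -0.019 for ARRB1 siRNA with starvation (0.15 as deposited) and to 0.019 for nicotine in control siRNA cells (0.14 as deposited). For nicotine in ARRB1 siRNA cells it was 0.09 as deposited, -0.07 after quantile normalization, -0.05 with the median over probe sets, -0.017 without _x_at and _s_at probe sets and -0.035 after the subtraction that follows, within the spread of equally bright probe sets. Subtracting the median of equally bright probe sets, chosen after seeing the data, gave -0.064, -0.018 and 0.0055 for the same comparisons. Of 36 values of single members, 10 took the other sign after quantile normalization, 11 after that subtraction, 5 after centring, 7 with the median over probe sets and 0 with the floor. Without _x_at and _s_at probe sets 3 of 32 did so, and TALDO1 then had no probe set left. The causes were not tested. Without the filter on dim genes, 16.6% of genes differed by 2-fold for ARRB1 siRNA with nicotine and 15.4% with starvation, and 15.9% and 15.1% for nicotine in ARRB1 siRNA and control siRNA cells.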
